A study of Mus musculus with 2 samples.

Results

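The 35 genes described here carry glucose through glycolysis or belong to the response of cells to low oxygen. They were taken by name, and all 35 were found among the 32285 genes of the deposited count matrices, 34 by the same symbol and Ero1a under its older symbol Ero1l. By role they fall into 2 glucose transporters, 18 glycolysis enzymes, 2 enzymes that set fructose 2,6-bisphosphate, 2 lactate transporters and 11 genes known as hypoxia targets that are not glycolysis enzymes, called hypoxia-only genes below. The rule that chose them used no measured value, though earlier results of these data were known when the list was made.

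The cells come from tumours of B16.SIY, a melanoma line of the mouse that expresses the SIY antigen. Before injection under the skin of B6 mice, the line received lentivirus coding for either control shRNA or Decr2 shRNA and was selected with puromycin. Live CD45+ cells were sorted from the tumours at day 14 and read by single-cell RNA sequencing, 1 library for each shRNA, labelled Control and Decr2 knock down. The sources used here do not give how many mice, shRNA sequences or tumours stand behind each, the shRNA acts in the injected tumour cells and not in the host cells that were sorted, and the labels call the cell type melanoma although the sort was for CD45+ cells.

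Glycolysis splits glucose into pyruvate and yields ATP without oxygen, and lactate dehydrogenase then turns pyruvate into lactate, which leaves the cell through monocarboxylate transporters. When oxygen falls, prolyl hydroxylases stop marking HIF-1 alpha for destruction, and the HIF dimer binds the core sequence RCGTG near its targets, which include most glycolysis enzymes as well as genes of mitophagy, lipid storage and vessel growth. In T cells and myeloid cells glycolysis is also switched on by activation with oxygen present, so glycolysis genes and hypoxia genes need not move together.

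Each difference between the libraries stands on 1 library per group, so no test was possible and no p-value is given. Brackets hold exact 95% intervals, which cover counting error only. Cells were placed in 14 classes by marker genes that hold no member, and 11 classes with at least 50 cells in each library were compared. Levels are CPM, the unique molecular identifiers (UMIs) of a gene per 1000000 UMIs of the class. Because each UMI tags the 3′ end of 1 molecule, CPM can be set side by side between genes without correction for length. The kept cells numbered 8950 under control shRNA and 6897 under Decr2 knockdown, with medians of 2877.5 and 4443 UMIs, so knockdown cells were deeper, and 34 barcodes occurred in both libraries. The depth gap ran the other way in the melanoma class, with medians of 31080 UMIs in 71 control cells and 2842 in 78 knockdown cells. Decr2 was counted at 20 UMIs in control and 6 in knockdown melanoma cells, a ratio of 0.339 (0.111 to 0.875). At 6.44 pooled CPM it was under the minimum asked of members below. In every compared immune class with Decr2 UMIs the interval held 1. CD8 T cells, with 74 and 61 UMIs, had a ratio of 0.705 (0.494 to 1.0025), and monocytes, conventional and plasmacytoid dendritic cells had ratios above 1. RNA of 6 melanoma markers was found in the 10 compared immune classes at 0.688% to 3.47% of the melanoma level. A member was at or below that share in both libraries in 10 of 350 pairs of member and immune class, among them Ldhb in NK cells and conventional dendritic cells, and such levels are read as background.

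Promoter sequence is shown first for the hexokinase and lactate dehydrogenase genes, because cell classes differed in which of these copies they used, and for Pgk1, whose knockdown ratio in conventional dendritic cells was the highest among their enzymes. The HIF core was searched as its ACGTG and GCGTG forms on both strands in RefSeq promoters of GRCm38.p6. ACGTG overlaps the E-box CACGTG, which MYC and other basic helix-loop-helix factors bind, and a CACGTG gives a match on each strand. At least 1 of these forms lay in 38.6% of all 32851 promoter windows of 250 bases, and in 79.2% of the 48 windows of the 33 members that were matched. ACGTG alone lay in 16.6% of all windows and 45.8% of the members' windows. The members' windows were also richer in CG dinucleotides, with a median of 14 against 6, so the 2 shares are not compared between windows of like base composition. The lines below give 150 bases before the annotated start on the gene's strand, with ACGTG or its reverse complement in capitals.
Hk1, chr10:62379909-62380058, minus strand: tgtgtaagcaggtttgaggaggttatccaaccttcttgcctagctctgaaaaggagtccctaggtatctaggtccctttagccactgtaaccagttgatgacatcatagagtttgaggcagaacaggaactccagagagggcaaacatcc
Hk2, chr6:82774455-82774604, minus strand: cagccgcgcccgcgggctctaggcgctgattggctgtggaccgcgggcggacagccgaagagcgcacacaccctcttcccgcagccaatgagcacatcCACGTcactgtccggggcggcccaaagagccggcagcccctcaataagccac
Hk3, chr13:55021386-55021535, minus strand: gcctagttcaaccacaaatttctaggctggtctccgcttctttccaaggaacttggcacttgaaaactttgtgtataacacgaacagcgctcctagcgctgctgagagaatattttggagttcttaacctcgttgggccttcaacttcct
Ldha, chr7:46845654-46845803, plus strand: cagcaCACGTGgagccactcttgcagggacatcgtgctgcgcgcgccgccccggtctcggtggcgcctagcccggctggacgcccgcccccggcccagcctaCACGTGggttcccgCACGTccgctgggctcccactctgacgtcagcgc
Ldhb, chr6:142507958-142508107, minus strand: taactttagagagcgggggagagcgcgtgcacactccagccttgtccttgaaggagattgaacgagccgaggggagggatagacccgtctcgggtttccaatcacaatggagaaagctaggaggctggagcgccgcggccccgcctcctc
Pgk1, chrX:106186950-106187099, plus strand: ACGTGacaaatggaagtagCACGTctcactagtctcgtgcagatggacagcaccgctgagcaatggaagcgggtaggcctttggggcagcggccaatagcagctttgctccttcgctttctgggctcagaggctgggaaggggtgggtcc
The Ldha stretch, before the first of 2 RefSeq starts, holds 5 matches of ACGTG, of which 4 lie within CACGTG. The Ldhb stretch holds 0 matches of ACGTG and 1 of GCGTG, at 126 bases before its start. Of ACGTG the Pgk1 stretch holds 2 matches and the Hk2 stretch 1, and the Hk1 and Hk3 stretches hold 0. Hk1 has 2 RefSeq starts, and the stretch shown lies before the upstream one. The 250 bases before the other hold 3 GCGTG and 0 ACGTG. Only stretches that no annotated exon overlaps are shown, which left the second Hk1 start out. Which start these cells use was not measured. Hk3 has 1 ACGTG at 156 bases before its start and Hk2 another at 226 bases, both outside the stretches shown. A match is a stretch of letters and was not measured as a binding site, and no match says only that these letters are absent from the stretch shown.

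**Figure D1:**
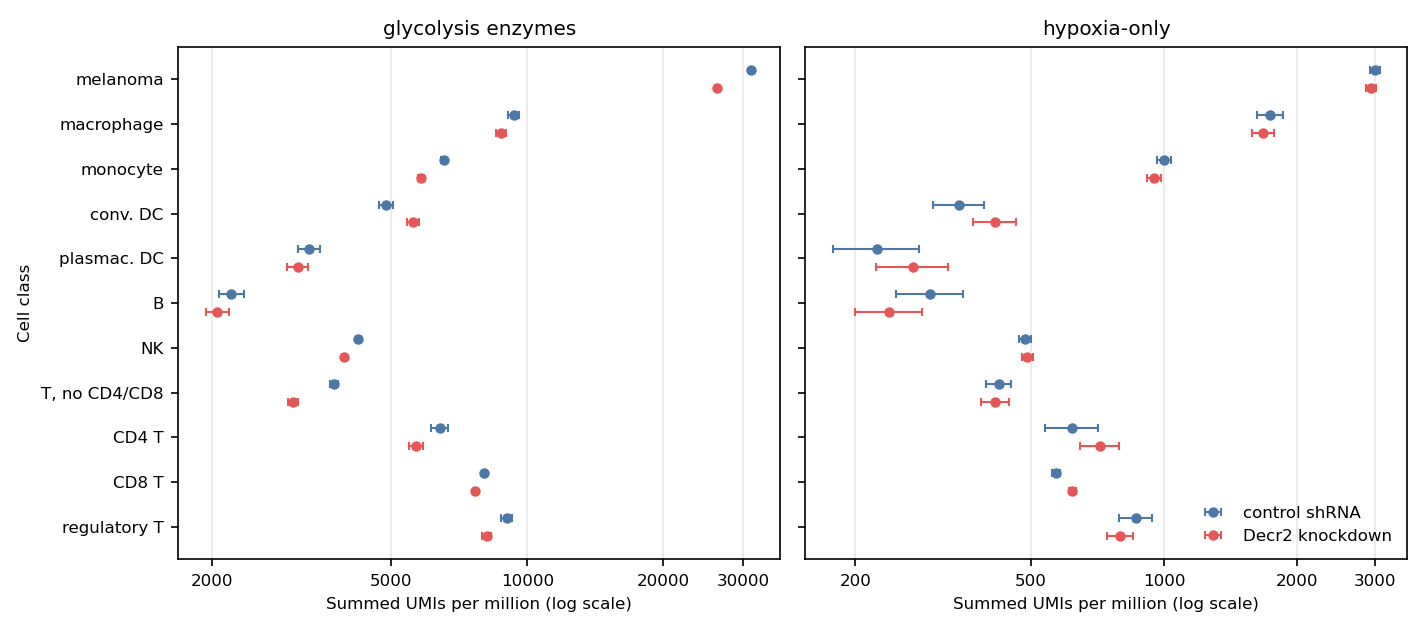
Summed level of the 18 glycolysis enzymes (left) and the 11 hypoxia-only genes (right) in each cell class, in CPM on a log axis; points are the 2 libraries and bars are exact 95% Poisson intervals. Melanoma cells had the highest enzyme level at 31287 and 26304 CPM, and macrophages had the highest hypoxia-only level among immune classes at 1739 and 1676 CPM.

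The enzyme level set the cell classes apart by more than the knockdown did. Melanoma cells held 31287 CPM of enzyme RNA under control shRNA and 26304 under Decr2 knockdown. Among immune classes macrophages, with 9329 and 8755 CPM, and regulatory T cells, with 8987 and 8119, came first, and their intervals overlapped in the control library. CD8 T cells followed at 8008 and 7640 CPM, then monocytes at 6523 and 5804, CD4 T cells at 6391 and 5659 and conventional dendritic cells at 4863 and 5573. NK cells had 4216 and 3924 CPM, T cells without CD4 or CD8 UMIs 3729 and 3027, plasmacytoid dendritic cells 3284 and 3097, and B cells the lowest level of the 11 classes at 2210 and 2056. The intervals of monocytes and CD4 T cells overlapped in both libraries, and those of CD4 T cells and conventional dendritic cells overlapped in the knockdown library. Gapdh, which oxidises glyceraldehyde 3-phosphate, made up 25.5% to 37.0% of the enzyme UMIs in each compared class and library.

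The hypoxia-only genes ordered the classes differently. Melanoma cells had 3000 and 2934 CPM, macrophages 1739 and 1676, monocytes 1001 and 947, regulatory T cells 862 and 795, CD4 T cells 618 and 715, and CD8 T cells 569 and 620. NK cells followed at 484 and 490, T cells without CD4 or CD8 at 422 and 414, and conventional dendritic cells at 343 and 414. Plasmacytoid dendritic cells had 224 and 270 CPM, which overlapped the B cell values of 296 and 239. Counted against each other, macrophages held 5.37 (4.99 to 5.77) enzyme UMIs for each hypoxia-only UMI under control shRNA and 5.23 (4.90 to 5.57) under knockdown, while CD8 T cells held 14.1 (13.7 to 14.4) and 12.3 (12.1 to 12.6). Single cells were also scored at an equal depth of 1000 UMIs, without Higd1a, the hypoxia-only gene with the most UMIs in CD8 T cells. A UMI of at least 2 of the 10 remaining genes was found in 22.1% (14.2 to 31.8) of control and 24.7% (16.5 to 34.5) of knockdown macrophages and in 11.5% and 11.3% of monocytes. The shares were 2.80% (2.06 to 3.70) and 4.03% (3.00 to 5.28) in CD8 T cells, and 1.56% and 0.518% in B cells, the class with the lowest enzyme level. Shallower cells were left out of these shares, 11 control and 6 knockdown cells among CD8 T cells and none among macrophages. Without thinning, 63.5% and 77.9% of CD8 T cells had at least 1 UMI of these genes, against 20.7% and 23.9% after it.

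**Figure D2:**
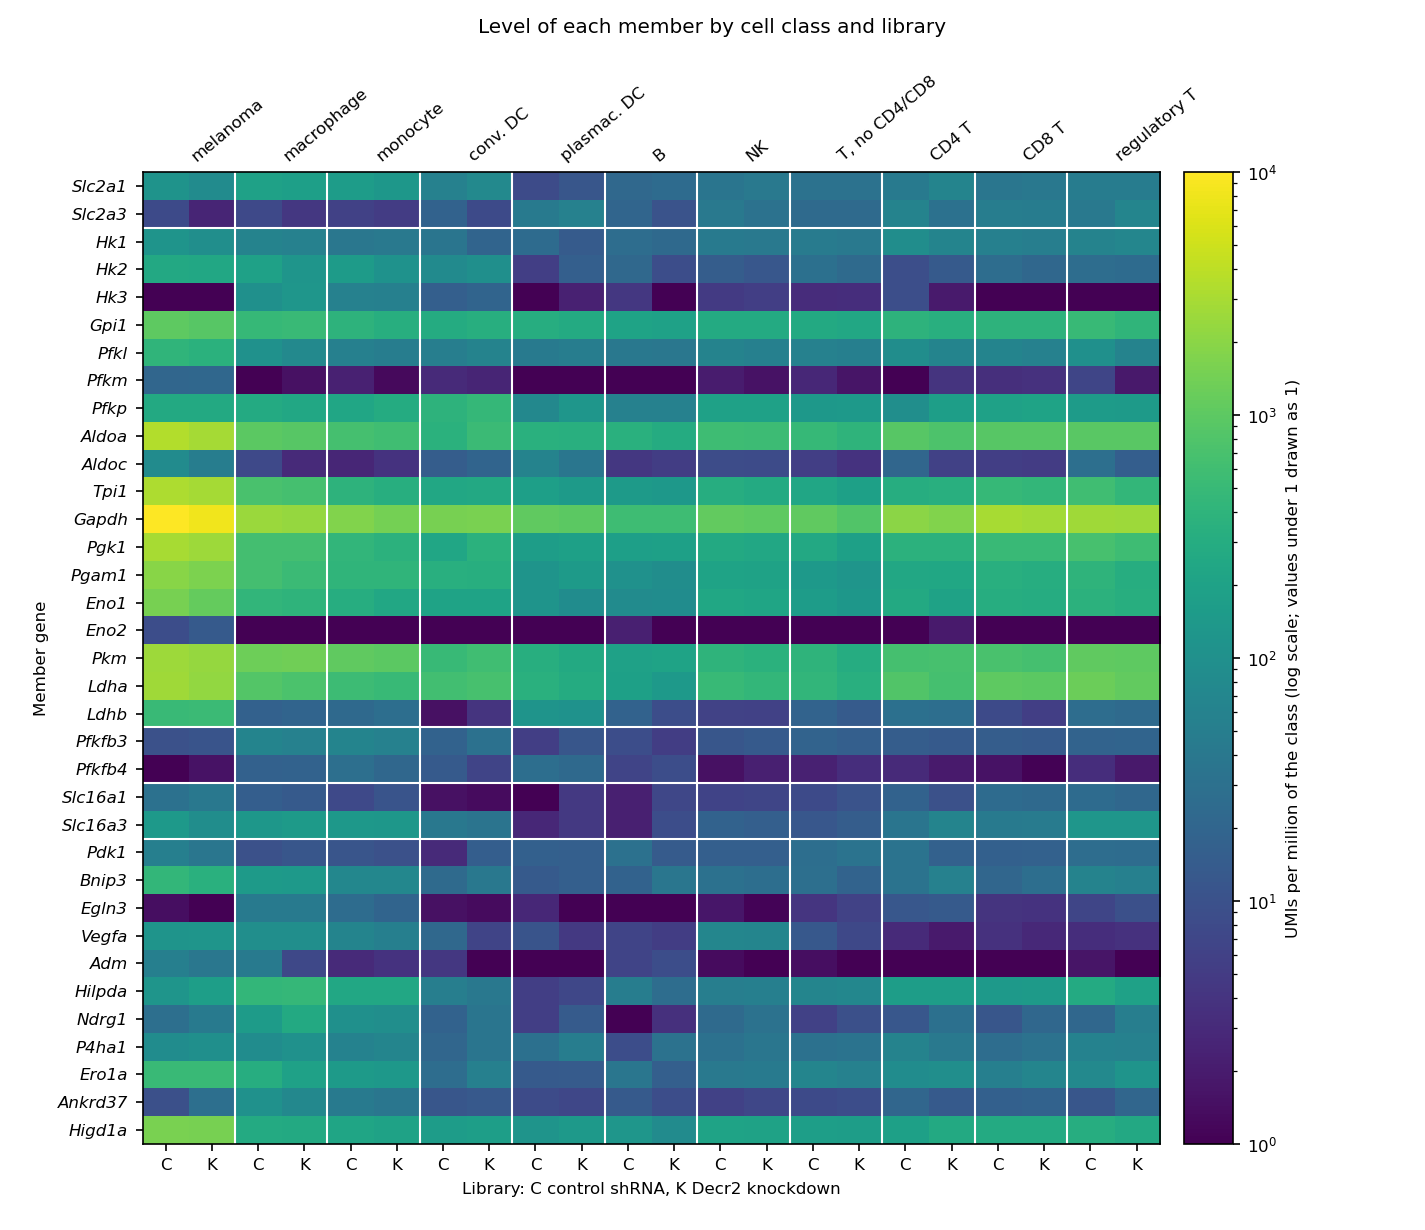
Level of each of the 35 members (rows, grouped by role with white lines) in 11 cell classes, control (C) beside Decr2 knockdown (K), as CPM on a log colour scale. Aldoa, Gapdh and Pkm are bright in every class, while Hk3, Vegfa, Egln3, Ndrg1 and Ankrd37 differ by class in both libraries.

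Glucose enters through Slc2a1 (GLUT1), the common basal transporter, or Slc2a3 (GLUT3), which has a higher affinity. Monocytes and macrophages used Slc2a1 almost alone: it gave 488 of 506 control and 413 of 429 knockdown UMIs of the pair in monocytes, or 96.4% (94.4 to 97.9) and 96.3% (94.01 to 97.85). Melanoma cells had 93.5% and 96.97% Slc2a1. CD8 T cells divided the pair, with Slc2a1 at 43.6% (40.6 to 46.5) and 45.6% (42.9 to 48.3). In plasmacytoid dendritic cells Slc2a3 gave 16 of 19 and 25 of 30 UMIs, the highest Slc2a3 share of the 11 classes in both libraries. NK cells differed between the libraries, with 46.8% (42.9 to 50.7) Slc2a1 in control and 56.6% (52.7 to 60.4) in knockdown cells. There Slc2a3 was at 40.9 CPM in control and 32.0 in knockdown cells, a ratio of 0.783 (0.668 to 0.918), and Slc2a1 at 36.0 and 41.7.

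Hexokinases trap glucose as glucose 6-phosphate. Hk1 is the housekeeping form, Hk2 the inducible form, and Hk3 a form of myeloid cells. Hk1 was the leading copy in the lymphocyte classes. It made up 67.0% (64.1 to 69.9) and 69.6% (66.8 to 72.2) of hexokinase UMIs in CD8 T cells, 68.7% and 70.3% in NK cells, and 69.2% and 73.0% in regulatory T cells. Its share was lower in T cells without CD4 or CD8, at 58.1% and 59.8%. In B cells Hk1 gave 12 of 24 control UMIs, against 10 for Hk2, and 13 of 18 knockdown UMIs. Monocytes used Hk2 for 61.8% (58.2 to 65.2) in control and 53.3% (49.4 to 57.2) in knockdown cells, and Hk3 for 23.0% and 26.9%. Hk3 reached 28.3% (21.9 to 35.4) and 41.7% (34.9 to 48.8) in macrophages and was not found among 817 and 652 hexokinase UMIs of melanoma cells, which allows up to 0.451% and 0.564%. Hk2 was also the leading copy in conventional dendritic cells, at 61.5% and 71.2%, and in melanoma cells, at 68.8% and 72.9%.

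Hk2 (ENSMUSG00000000628, chromosome 6, 82725025 to 82774454, minus strand, GRCm38) had the lowest knockdown ratio among the enzymes past the minimum in both monocytes and macrophages. In monocytes it was at 156 CPM in control and 110 in knockdown cells, from 465 and 345 UMIs, a ratio of 0.709 (0.615 to 0.817). In macrophages it was at 194 and 122 CPM, from 100 and 82 UMIs, a ratio of 0.631 (0.466 to 0.854), and 1 control cell held 23.0% of its UMIs. Without the cell of each library that held most UMIs the macrophage ratio was 0.711. Hk3 did not follow it, with ratios of 0.961 (0.774 to 1.19) in monocytes and 1.27 (0.892 to 1.83) in macrophages. In CD8 T cells the ratio of Hk2 was 0.830 (0.711 to 0.968), from 26.6 and 22.04 CPM.

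**Figure D3:**
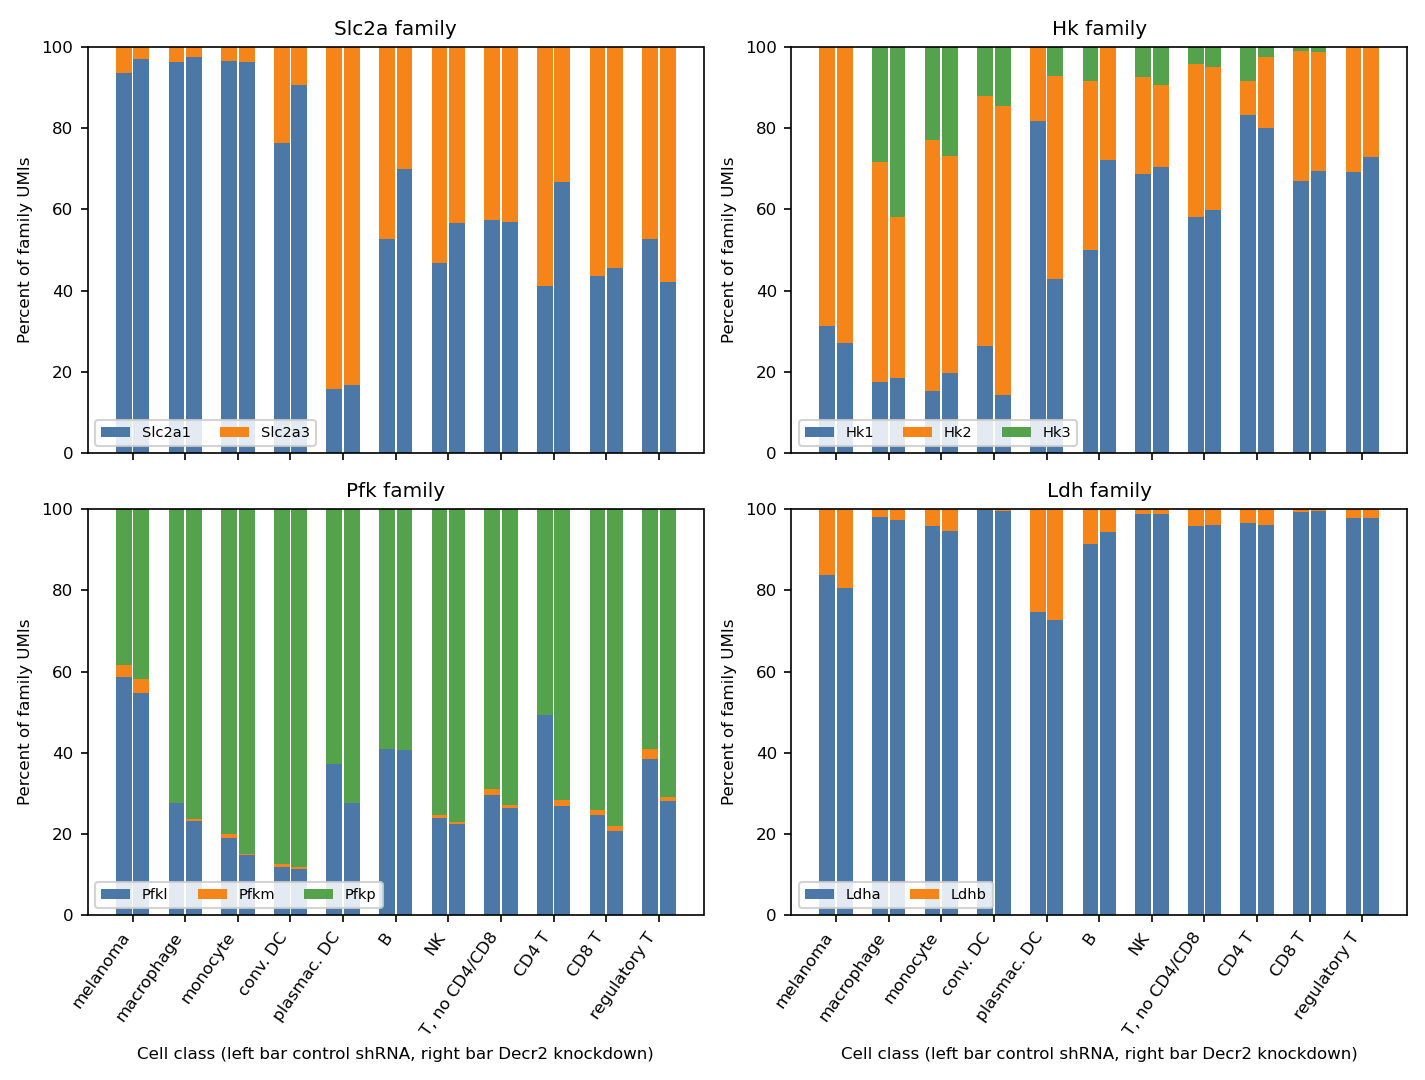
Share of each family's UMIs held by each copy, for glucose transporters, hexokinases, phosphofructokinases and lactate dehydrogenases, by cell class; the left bar of each pair is control and the right bar Decr2 knockdown, and bars sum to 100%. Slc2a1 and Hk2 lead in monocytes, macrophages and melanoma cells except for Hk2 in knockdown macrophages (39.8%), Hk1 leads in NK, CD8 and regulatory T cells, and Ldhb is visible in melanoma cells and plasmacytoid dendritic cells.

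Phosphofructokinase commits sugar to glycolysis. The platelet form Pfkp supplied 2492 of 3365 control UMIs, 74.1% (72.5 to 75.5), and 3191 of 4091 knockdown UMIs of CD8 T cells, 80.1% and 84.9% in monocytes and 87.4% and 88.1% in conventional dendritic cells. In melanoma cells the liver form Pfkl led with 58.7% (56.2 to 61.2) and 54.8% (52.0 to 57.6). The muscle form Pfkm was under 4% in each compared class and library. Pfkp (ENSMUSG00000021196, chromosome 13, 6579768 to 6648777, minus strand, GRCm38) was more often above 1 than the other enzymes between the libraries. Its ratio interval lay above 1 in 5 classes and below 1 in 0, at 1.09 (1.04 to 1.15) in CD8 T cells, 1.245 (1.13 to 1.38) in monocytes, 1.22 (1.04 to 1.44) in conventional dendritic cells, 1.72 (1.06 to 2.83) in plasmacytoid dendritic cells and 1.84 (1.21 to 2.87) in CD4 T cells. The interval of Ldha lay below 1 in 8 classes and that of Gapdh in 7, with neither above 1 in any. These interval counts were not made over all genes, and intervals are narrow where UMIs are many. By the size rule given below, Pfkp was counted as higher in 2 of 11 classes, and Ldha and Gapdh as lower in 2 each. Pfkl was at 103 CPM in control and 60.9 in knockdown regulatory T cells, a ratio of 0.593 (0.412 to 0.855). Pfkfb3, whose product drives phosphofructokinase, was highest among the compared classes in monocytes (64.9 and 56.3 CPM) and macrophages (63.9 and 56.6), and Pfkfb4 reached 28.4 and 21.4 CPM in monocytes.

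Below phosphofructokinase 1 copy served nearly all cells. Aldoa gave over 96% of aldolase UMIs in all compared classes but plasmacytoid dendritic cells, where Aldoc, the brain form, gave 22 of 145 control UMIs, 15.2% (9.76 to 22.1), and 16 of 161 knockdown UMIs, 9.94% (5.79 to 15.6). Eno2, the neuronal enolase, had 19 and 26 UMIs in melanoma cells, and no other compared class had more than 3 in a library. Gpi1, Tpi1, Pgk1, Pgam1, Eno1, Pkm and Ldha were each past the minimum of 50 pooled UMIs and 20 pooled CPM in all 11 classes. In melanoma cells Aldoa was at 3451 and 2895 CPM, Tpi1 at 3178 and 2848, Pgk1 at 2999 and 2574 and Ldha at 2662 and 2225. Several of these genes have near-identical processed copies in the genome, and reads that the authors' counting could not place may be missing from their levels.

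Lactate dehydrogenase and its exporters close the path. Ldha, the form that favours lactate, made up 99.2% and 99.4% of the UMIs in CD8 T cells, from 13359 and 14685 UMIs of the pair. Ldhb, the form linked to lactate use, made up 25.3% (18.9 to 32.5) and 27.3% (20.8 to 34.6) in plasmacytoid dendritic cells at 119 and 109 CPM, which is 23.2% and 20.5% of the melanoma level and so well above the 1.60% and 1.09% seen for melanoma markers there. In melanoma cells it made up 16.1% (15.3 to 17.0) and 19.3% (18.3 to 20.4). The exporter Slc16a3 (MCT4), known for lactate release, was at 137 and 132 CPM in monocytes, 130 and 154 in macrophages and 126 and 128 in regulatory T cells, against 45.1 and 45.5 in CD8 T cells and 17.8 and 16.5 in NK cells. Slc16a1 (MCT1) made up 35.5% and 33.7% of the pair in CD8 T cells and 5.30% and 7.59% in monocytes.

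The hypoxia-only genes differed in where they were found. Hilpda, which blocks the release of fat from lipid droplets, was highest in macrophages at 453 and 467 CPM, while it reached 247 and 253 in monocytes, 283 and 192 in regulatory T cells, 138 and 152 in CD8 T cells and 51.1 and 53.2 in NK cells. Vegfa, the vessel growth factor, was at 69.5 and 67.0 CPM in NK cells, close to its 64.2 and 53.4 in monocytes, while CD8 T cells had 3.66 and 2.93. Its UMIs in NK cells, 593 and 607, gave a ratio of 0.965 (0.860 to 1.08). Egln3, an oxygen-sensing prolyl hydroxylase, was at 44.5 and 43.2 CPM in macrophages and 25.8 and 19.5 in monocytes, and under 15 CPM in each of the other compared classes. Ndrg1 was at 157 and 268 CPM in macrophages, and Ankrd37 at 105 and 73.0. For both, as for Egln3, macrophages came first among the 11 classes in both libraries.

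Higd1a, a respiratory chain assembly factor, was found in every compared class, at 1551 and 1524 CPM in melanoma cells and between 85.4 and 310 CPM in the compared immune classes. It supplied 48.5% and 44.7% of the hypoxia-only UMIs in CD8 T cells and 16.1% and 15.8% in macrophages. Bnip3, a receptor for mitophagy, was at 451 and 346 CPM in melanoma cells and 149 and 142 in macrophages, and Ero1a, an oxidase that forms disulfide bonds in the endoplasmic reticulum, at 522 and 517 in melanoma cells. Adm, the vasodilator adrenomedullin, had 116 and 73 UMIs in melanoma cells, and 23 and 5 in macrophages. P4ha1, a collagen prolyl hydroxylase, lay between 27.3 and 107 CPM in CD8 T cells, NK cells, monocytes, macrophages and regulatory T cells.

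A member is counted as higher or lower when its ratio was at least 25% above or 20% below the control level and it passed the minimum. Between the libraries the enzyme sum was lower in the knockdown library in 10 of 11 classes, and its interval lay below 1 in 8 of them. The ratio was 0.954 (0.946 to 0.962) in CD8 T cells, 0.931 (0.917 to 0.944) in NK cells, 0.890 (0.872 to 0.908) in monocytes and 0.939 (0.903 to 0.975) in macrophages. It was 0.841 (0.831 to 0.850) in melanoma cells. In conventional dendritic cells it was 1.15 (1.09 to 1.20). The hypoxia-only sum had its interval above 1 in CD8 T cells and conventional dendritic cells and below 1 in monocytes. The share of melanoma marker RNA in immune classes also differed between the libraries. It was 3.47% in control and 2.78% in knockdown B cells, and 2.19% and 1.89% in NK cells. It was lower in knockdown cells of every compared immune class but CD4 T cells and macrophages. The part of melanoma RNA in the immune class ratios was not tested.

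**Figure D4:**
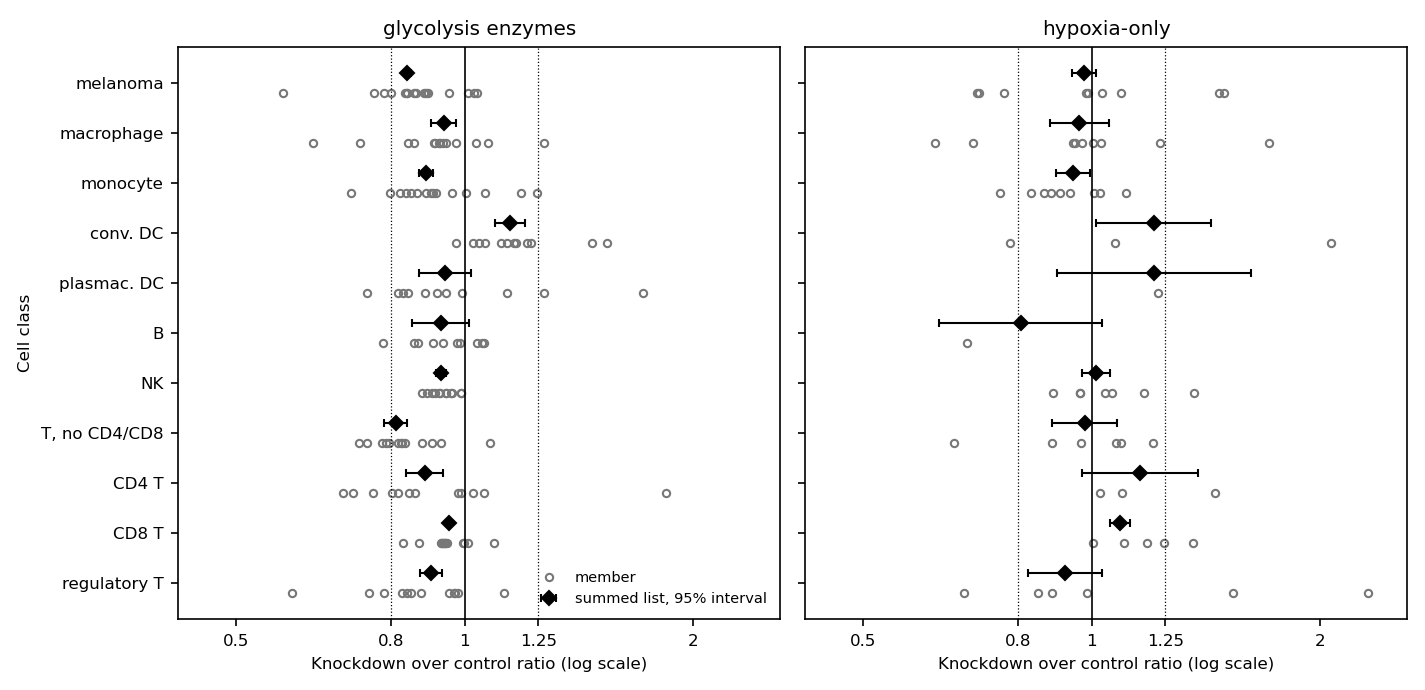
Knockdown over control ratio of the summed enzymes (left) and summed hypoxia-only genes (right) in each class on a log axis; diamonds with bars are sums with exact 95% intervals, open circles are single members past the minimum, the solid line is 1 and dotted lines mark 20% below and 25% above it. Conventional dendritic cells, with an enzyme ratio of 1.15, are the 1 class to the right of 1 on the left side, and CD8 T cells and conventional dendritic cells lie right of 1 on the right side with intervals that do not reach it.

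CD8 T cells and NK cells had the most UMIs and the smallest scatter. In CD8 T cells 13 of 18 enzymes passed the minimum and 0 were higher or lower, where 3.28% of all 5209 genes of the same minimum were higher and 2.59% lower. The median log2 ratio of these enzymes was -0.09, against -0.03 over all genes. Of 11 hypoxia-only genes 5 passed, all had ratios above 1 with Higd1a at 1.00, and 1, Bnip3, was higher. Bnip3 had 264 UMIs (20.6 CPM) in control and 420 (28.0 CPM) in knockdown CD8 T cells, a ratio of 1.36 (1.16 to 1.59), and 1.13 with every cell weighted equally. The sum of the hypoxia-only genes was 1.09 (1.06 to 1.12) times the control level, and 1.17 (1.12 to 1.22) without Higd1a, but 0.823 in cells of 5000 to 10000 UMIs.

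In NK cells all 12 enzymes that passed were below 1, with 0 higher and 0 lower against 3.81% and 1.61% of all genes, and a median log2 ratio of -0.10 against 0.01. The enzyme ratio of NK cells differed by depth. It was 0.963 (0.892 to 1.04) in cells of 500 to 2000 UMIs, 0.832 (0.816 to 0.848) in those of 2000 to 5000 and 0.672 (0.650 to 0.694) in those of 5000 to 10000. The part of depth in the NK ratios was not tested. Ldha was at 504.5 CPM in control NK cells and 443 in knockdown NK cells, a ratio of 0.878 (0.841 to 0.917). Of 7 hypoxia-only genes that passed, 1 was higher and 0 lower. The one was Ndrg1, at 23.8 and 32.5 CPM.

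Ndrg1 (ENSMUSG00000005125, chromosome 15, 66929318 to 66969640, minus strand, GRCm38), a stress gene induced by hypoxia and cell differentiation, was the member most often higher in the knockdown library. Its ratio was above 1 in 7 of the 8 classes with at least 30 UMIs, and its interval lay above 1 in 5, a count not made over all genes. It was counted as higher in 4 of the 5 classes where it passed the minimum, where 12.0% of all pairs of gene and class were. The ratio was 1.36 (1.14 to 1.64) in NK cells from 203 and 294 UMIs, 1.83 (1.50 to 2.23) in CD8 T cells from 153 and 327 UMIs, and 1.71 (1.31 to 2.25) in macrophages from 81 and 180. It was 2.31 (1.24 to 4.62) in regulatory T cells from 13 and 54 UMIs, and 1.49 (1.06 to 2.11) in melanoma cells, where 1 knockdown cell held 30.5% of the UMIs and the ratio was 0.689 with classes read from thinned cells. In monocytes it was 0.937 (0.795 to 1.10). The pooled level in CD8 T cells was under the 20 CPM minimum, so Ndrg1 was not counted there.

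The other T cell classes had fewer cells and wider background. In CD4 T cells the enzyme ratio was 0.885 (0.837 to 0.937), with 1 enzyme of 12 higher and 3 lower where 17.8% and 18.9% of genes were, and the hypoxia-only ratio was 1.16 (0.972 to 1.38), with 1 of 3 higher. In regulatory T cells the enzyme ratio was 0.903 (0.873 to 0.935), with 0 higher and 3 lower of 12 where 17.1% and 16.8% of genes were, and Hilpda had a ratio of 0.679 (0.551 to 0.838). Of 6 hypoxia-only genes 2 were higher there and 1 lower. In T cells without CD4 or CD8 UMIs the ratio was 0.812 (0.784 to 0.840), with 0 higher and 5 lower of 13 where 11.7% and 9.17% of genes were, and the hypoxia-only ratio was 0.980 (0.888 to 1.08).

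These T cell ratios moved with how the classes were read. When markers were read at an equal depth of 1000 UMIs per cell, the enzyme ratio was 1.01 in CD8 T cells, 1.15 in CD4 T cells and 1.00 in T cells without CD4 or CD8, while it was 0.731 in regulatory T cells. This left 44 control and 58 knockdown CD4 T cells, and 46 and 42 regulatory T cells. For all T cells together the enzyme ratio was 0.964 (0.956 to 0.972) by the full gate and 1.00 (0.995 to 1.01) by the thinned gate. The hypoxia-only ratio was 1.09 by both, though not within every depth band. Enzyme level was also higher at greater depth inside CD8 T cells of 1 library: from 4490 CPM in control cells of 2000 to 5000 UMIs, through 7429 in those of 5000 to 10000, to 9486 in those of 10000 or more. In knockdown CD8 T cells the values were 3254, 4922 and 8784. Cells of equal UMI count in libraries of unequal depth are not matched, so the within-band ratios of 0.725, 0.663 and 0.926 are values of these bands only. The hypoxia-only ratios of CD8 T cells in the same bands were 0.962 (0.850 to 1.09), 0.823 (0.769 to 0.880) and 1.10 (1.06 to 1.15), so the middle band ran opposite to the pooled 1.09. The part of depth in the ratios of both lists cannot be told apart from that of the knockdown.

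**Figure D5:**
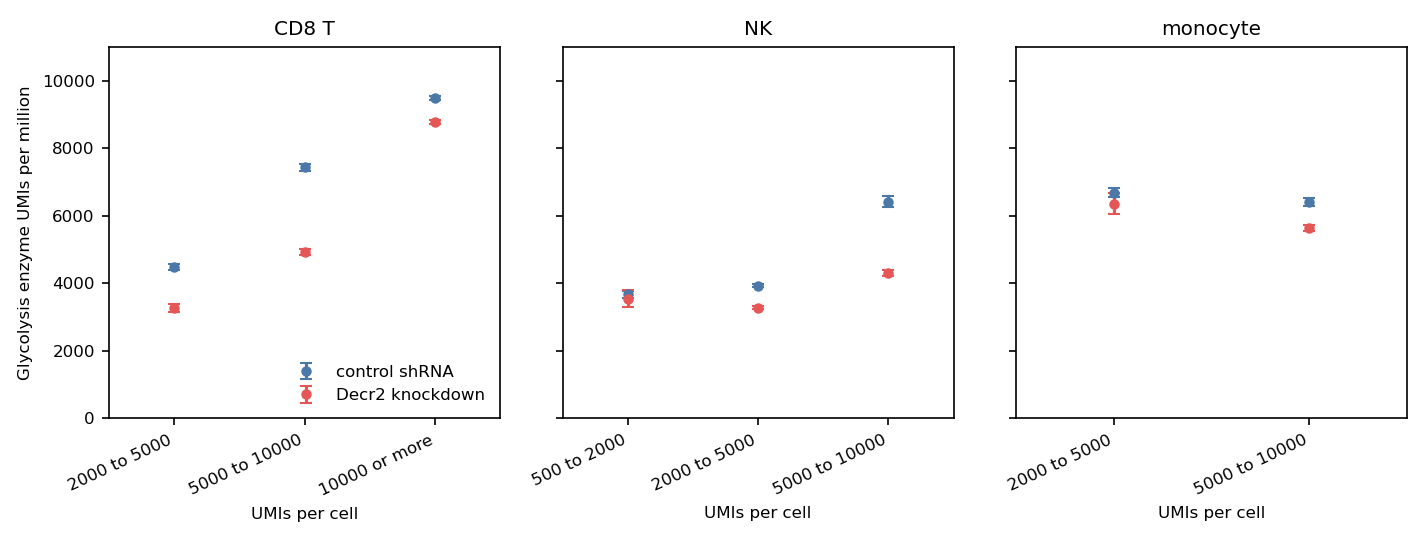
Glycolysis enzyme level in CPM for cells grouped by UMIs per cell, in CD8 T cells, NK cells and monocytes; points are the 2 libraries and bars are exact 95% Poisson intervals. The level climbs with depth in CD8 T cells of both libraries, from 4490 to 9486 CPM in control and from 3254 to 8784 in knockdown cells, and not in monocytes. In NK cells it climbs from 3663 to 6415 CPM in control cells and goes from 3529 through 3268 to 4310 in knockdown cells.

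Cycling cells, with UMIs of at least 2 cycling markers after thinning, held more enzyme RNA than other cells of their class. The ratio of cycling to other cells was 1.05 (1.04 to 1.07) in control and 1.11 (1.09 to 1.12) in knockdown CD8 T cells, and 1.11 and 1.32 in regulatory T cells. Hypoxia-only RNA was lower in cycling CD8 T cells, at 0.895 (0.850 to 0.942) and 0.858 (0.819 to 0.899) of the other cells. Cycling cells made up 19.1% and 18.1% of CD8 T cells, and without them the CD8 enzyme ratio between libraries was 0.940. Cycling cells were deeper, with medians of 10967 and 17881 UMIs against 4695.5 and 7808.5 in CD8 T cells.

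Among myeloid cells monocytes had an enzyme ratio of 0.890 and a hypoxia-only ratio of 0.945 (0.898 to 0.995). The hypoxia-only ratio was 0.956 (0.902 to 1.01) without Higd1a, and 1.02 for the full list with a macrophage gate of 1 marker. Of 15 enzymes that passed, 0 were higher and 2 lower, Hk2 and Eno1, where 8.36% of all genes were higher and 8.36% lower, and the median log2 ratio was -0.15 against -0.02. Eno1, the main enolase, was at 315 and 251 CPM, for a ratio of 0.796 (0.723 to 0.876). Slc2a1 was at 163 and 132 CPM in monocytes, a ratio of 0.809 (0.708 to 0.924) that was not counted as lower. Of 9 hypoxia-only genes 0 were higher and 1 lower, Egln3 at 0.757 (0.532 to 1.07). In macrophages 1 enzyme of 14, Hk3, was higher and 2, Hk2 and Pfkl, were lower, where 19.1% and 18.8% of genes were, and 1 of 9 hypoxia-only genes was higher and 2 lower. The markers of this class moved as well: the summed level of 6 macrophage markers was 2931 CPM in control and 1743 in knockdown cells, that of 6 monocyte markers 3410 and 4099, that of 5 shared markers 13090 and 15660, and that of 6 conventional dendritic markers 32.9 and 74.5, with 4 and 1 of the latter at 0. Their part in the macrophage ratios of Hk2, Hk3, Ero1a and Ndrg1 was not tested. Ero1a was at 314 and 195 CPM in macrophages, a ratio of 0.623 (0.491 to 0.789) that became 1.48 under a stricter gate. That gate left 34 control and 28 knockdown cells.

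Conventional dendritic cells were the class whose enzymes ran the other way. Of 12 enzymes 11 had ratios above 1, with 2 higher and 0 lower where 15.7% and 15.6% of all genes were, and the median log2 ratio was 0.20 against 0.00. Pgk1, which makes ATP, was at 229 CPM in 108 control cells and 352 in 84 knockdown cells, from 154 and 268 UMIs, a ratio of 1.54 (1.26 to 1.89). Aldoa stood at 361 and 531 CPM, with a ratio of 1.47 (1.251 to 1.73), and Ero1a at 26.8 and 55.2, a ratio of 2.06 (1.16 to 3.81) from 18 and 42 UMIs. Of 3 hypoxia-only genes 1 was higher and 1, Hilpda, lower, but Hilpda turned to 1.67 with markers read at equal depth and to 2.66 under a stricter gate. The stricter gate left 34 control and 54 knockdown cells. The enzyme ratio was 1.09 without the cell that held most UMIs in each library and between 1.13 and 1.24 under the other alternatives. Cells with Xcr1 or Clec9a, markers of type 1 dendritic cells, made up 24.1% of this class under control shRNA and 39.3% under knockdown, and their part in the result was not tested. The enzyme level was 5432 CPM in 19 control and 6661 in 22 knockdown cells with type 1 markers alone. It was 4750 CPM in 82 control and 5199 in 50 knockdown cells with Cd209a or Clec10a alone. These levels are given without intervals and rest on few cells, so they do not settle the part of the subset mix.

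Plasmacytoid dendritic cells had an enzyme ratio of 0.943 (0.871 to 1.02), with 2 of 11 higher and 1 lower where 16.0% and 14.6% of genes were. B cells had 0.930 (0.854 to 1.01), with 0 of 10 higher and 1 lower where 16.7% and 13.5% of genes were. Of the hypoxia-only genes Higd1a alone passed in each of these classes, at 1.22 (0.812 to 1.86) in the former and 0.686 (0.457 to 1.03) in the latter. The melanoma marker share was highest in B cells, at 3.47% and 2.78% of the melanoma level, where enzyme RNA was 7.06% and 7.82% of the melanoma level.

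In melanoma cells, the ones that carry the shRNA, 0 of 16 enzymes were higher and 4 lower where 15.0% and 10.8% of all genes were, and the median log2 ratio was -0.22 against 0.01. The 4 were Gapdh, Eno1, Hk1 and Aldoc. Gapdh was at 10257 CPM in control and 8200 in knockdown cells, a ratio of 0.799 (0.783 to 0.816). Slc2a1 was at 115 and 84.5 CPM, for a ratio of 0.735 (0.598 to 0.900), and Slc16a3 at 143 and 92.4, a ratio of 0.644 (0.532 to 0.778). The hypoxia-only sum was 3000 and 2934 CPM, for a ratio of 0.978 (0.943 to 1.01), with 2 of 9 higher and 3 lower. Hilpda was at 121 and 177 CPM, for a ratio of 1.47 (1.247 to 1.74), and 1 knockdown cell held 20.5% of its UMIs. Pdk1, which holds pyruvate back from mitochondria, was at 52.3 and 36.9 CPM, for a ratio of 0.706 (0.516 to 0.960), and Bnip3 at 0.768 (0.694 to 0.849). With every cell weighted equally, Aldoc was at 1.06, Slc16a3 at 1.27 and Bnip3 at 1.05. These sums rest on a few deep cells: 1 knockdown cell held 8.97% of the enzyme UMIs and 12.0% of the hypoxia-only UMIs. The sorted gate keeps CD45+ cells, so these melanoma cells are not a sample of the tumour's cancer cells.

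Other genes of the pathway were counted from lists chosen together with the members. Over all genes and the 11 classes, 12.0% of pairs past the minimum were higher and 10.6% lower, and the counts of these lists are given beside that. Over the 11 classes 45 pairs of class and HIF regulator passed the minimum, of which 7 were higher and 2 lower. For 12 other HIF target genes the counts were 14 higher and 7 lower of 64, and for 10 genes of pyruvate entry 1 and 7 of 57. For 6 pentose phosphate genes they were 2 and 7 of 47, and for 13 other glycolysis genes 0 and 3 of 10. Hif1a was at 522 and 516 CPM in regulatory T cells and 512 and 474 in CD4 T cells, against 164 and 177 in CD8 T cells and 181 and 174 in monocytes, with ratios between 0.885 and 1.21 over all 11 classes. Car9, a carbonic anhydrase of the hypoxia response, was at 276 and 235 CPM in melanoma cells and at most 13.8 in an immune class. Plin2, which coats lipid droplets, was at 689 and 760 CPM in macrophages and 524 and 571 in monocytes. Eno3, the muscle enolase, was at 67.7 and 46.1 CPM in CD8 T cells, a ratio of 0.682 (0.616 to 0.754), and at most 16.9 CPM in the other immune classes. Pgam2, the muscle phosphoglycerate mutase, was found in plasmacytoid dendritic cells at 177 and 114 CPM, from 64 and 49 UMIs, and no other compared class exceeded 1.32 CPM.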

How the data were processed

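The authors deposited whole UMI counts per gene and cell barcode, made with Cell Ranger 6.1.2 on mm10, per the submitters' processing notes, which also name Seurat 4.3. The annotation release is not given in the sources used here. Barcodes were kept with at least 500 UMIs, 200 genes and at most 10% mitochondrial UMIs, and doublets were removed by Scrublet score (scanpy 1.11.5) at 0.8% of barcodes per 1000. Cells were classed by the number of marker genes detected, for example at least 2 of 4 T cell genes, and cells that met several classes were set aside. The numbers of markers required and the minimum of 50 cells were set after the files had been seen. The members and lists were chosen with earlier results of these data known. Summed counts were divided by the class total. CPM carry exact Poisson intervals, shares exact Clopper-Pearson intervals and ratios exact conditional binomial intervals at 95%. Every member is described where it had at least 30 UMIs over both libraries, and it counts as higher or lower when its ratio was at least 25% above or 20% below control with at least 50 pooled UMIs and 20 pooled CPM. The intervals were run on simulated counts drawn from the Poisson model that they assume. That run checks the calculation and not the spread between cells of these data. Gene coordinates are from GENCODE on GRCm38, the assembly of mm10, and promoters from RefSeq on GRCm38.p6, of which 33 members matched. No p-value was computed, since each group has 1 library. Alternatives changed the filter, gate, doublets, cell weights and scaling.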

Additional observations from a re-analysis of the deposited data

Results flagged for a closer look

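Both lists had an interval wholly above 1 in some classes and wholly below 1 in at least 1 other. The glycolysis enzyme ratio was 1.15 in conventional dendritic cells, and its interval lay below 1 in 8 other classes. The hypoxia-only ratio was 1.09 in CD8 T cells and 1.21 in conventional dendritic cells. It was 0.945 (0.898 to 0.995) in monocytes, the only class with this interval below 1. Without Higd1a the monocyte ratio was 0.956 (0.902 to 1.01). With a macrophage gate of 1 marker the monocyte ratio of the full list was 1.02. In CD8 T cells of 5000 to 10000 UMIs the hypoxia-only ratio was 0.823. The difference between classes was not tested, because each group has 1 library. The dendritic cells numbered 108 under control shRNA and 84 under knockdown.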

How the results depend on the processing

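Of the enzyme list ratios recomputed under alternatives, 81 stayed within counting error, 28 moved beyond it and 3 reversed. Of the hypoxia-only list ratios these counts were 97, 14 and 1.
With markers read from cells thinned to 1000 UMIs, the enzyme ratios reversed to 1.01 in CD8 T, 1.15 in CD4 T and 1.00 in T cells without CD4 or CD8, and moved to 0.731 in regulatory T, 0.849 in monocytes, 0.641 in macrophages and 0.874 in melanoma; hypoxia-only ratios became 1.14 in CD8 T, 0.861 in CD4 T, 0.599 in regulatory T, 0.539 in macrophages and 0.830 in melanoma.
With a stricter gate, enzymes were 0.848 in B, 0.862 in monocytes, 1.24 in conventional dendritic cells and 0.872 in melanoma. Hypoxia-only genes were 0.565, 0.746, 1.63 and 1.03 in the same classes and 1.36 in macrophages. The stricter gate left 34 control and 28 knockdown macrophages, and 34 and 54 conventional dendritic cells.
With a macrophage gate of 1 marker, added after seeing the data, the hypoxia-only ratio of monocytes reversed to 1.02 and the macrophage enzyme ratio was 0.899.
At most 5% mitochondrial UMIs gave enzyme ratios of 0.897 in macrophages and 0.910 in melanoma, and a hypoxia-only ratio of 1.10 in melanoma; no limit gave 0.944 in CD8 T, 0.849 in T cells without CD4 or CD8, 0.809 in melanoma and 0.926 for hypoxia-only genes in melanoma.
With doublets kept, enzymes were 0.851 in T cells without CD4 or CD8 and 0.854 in melanoma.
With equal weight per cell, enzymes were 0.939 in CD8 T, 0.823 in regulatory T, 0.897 in NK and 0.895 in melanoma, and hypoxia-only genes 0.957 in NK.
Scaling by the median ratio gave 0.972 in CD8 T; scaling without mitochondrial, ribosomal protein and haemoglobin genes gave 0.973 in CD8 T and 0.829 in melanoma.
Without cycling cells, enzymes were 0.940 in CD8 T, 0.870 in regulatory T and 0.813 in melanoma; without the top cell, 1.09 in conventional dendritic cells and 0.816 in melanoma, with 0.921 for hypoxia-only genes in melanoma.
Of the ratios of single members 15 reversed, 170 moved and 2088 stayed. With equal weight per cell these were, in melanoma, Aldoc 1.06, Slc16a1 0.640, Slc16a3 1.27 and Bnip3 1.05. With the thinned gate they were Hk1 1.246 in CD4 T, Ero1a 0.611 in regulatory T, Pgk1 1.03, Pkm 1.02, Ldha 1.03 and Bnip3 1.16 in T cells without CD4 or CD8, Hilpda 1.67 in conventional dendritic cells, and Adm 1.05 and Ndrg1 0.689 in melanoma. With the stricter gate they were Ero1a 1.48 in macrophages and Hilpda 2.66 in conventional dendritic cells. The cause was not tested. Depth limits the small classes, whose intervals cover counting error only; conventional dendritic cells kept an enzyme ratio above 1 in every alternative run. No paired analysis was possible because each group has 1 library.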

Other observations

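The 3 rarest gated classes had too few cells to compare between libraries. Mast cells or basophils, 32 control and 19 knockdown cells, had an enzyme level of 6073 and 6577 CPM. Their hypoxia-only level was 1094 (934 to 1272) and 1342 (1155 to 1549) CPM. The control interval held the monocyte level of 1001, while the knockdown interval lay above the monocyte level of 947. In the control library 1 cell held 51.65% of the 91 Ero1a UMIs of this class. Mature dendritic cells, 18 and 26 cells, had 5545 and 5441 CPM of enzymes, and their fructose 2,6-bisphosphate enzymes were at 155 and 223 CPM from 12 and 35 UMIs. Neutrophils, 14 and 6 cells, had 430 and 607 CPM of lactate transporters, from 32 and 8 UMIs. The cycling NK cells, 27 and 25, had enzyme levels of 5305 and 6619 CPM against 4191 and 3854 in other NK cells, and medians of 5852 and 7803 UMIs against 2413 and 3562.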
